A study of Homo sapiens with 4 samples.

Results

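The genes examined were 10 checkpoint and immune inhibitory molecules, namely CD274, PDCD1LG2, CD276, VTCN1, TNFRSF14, LGALS9, PVR, NECTIN2, CD47 and IDO1, by which epithelial and tumor cells can restrain T cells, NK cells and phagocytes. They were chosen by name, as a list of surface ligands and IDO1, and each was matched to its Ensembl identifier. All 10 had a row among the 37515 genes of the count table, and 7 passed the filter on low counts and were tested. RNA-seq counts were available for 4 Caco-2 libraries, from a human colorectal carcinoma cell line used as a model of the intestinal epithelium. The cells carried the label WT and had been grown on transwell inserts for 15 days. In 2 libraries they had received 60 ng/ml interferon gamma (IFNγ) in the basal compartment for 3 h, and in the other 2 they were unstimulated and taken at 0 h. The IFNγ and the 3 h that passed therefore cannot be told apart. The labels do not say that replicates were separate cultures, so p-values measure the spread between these libraries, which may be technical.

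Inhibitory ligands bind receptors that dampen the cells that meet them. PD-L1 (encoded by CD274) and PD-L2 (PDCD1LG2) engage PD-1 on activated T cells, and B7-H3 (CD276) and B7-H4 (VTCN1) are further members of the same B7 family. PVR and NECTIN2 are adhesion molecules that are both bound by the inhibitory receptor TIGIT and the activating receptor CD226, HVEM (TNFRSF14) is bound by BTLA and CD160, galectin-9 (LGALS9) by TIM-3, and CD47 by SIRPα, a phagocyte receptor that restrains engulfment. IDO1 is an intracellular enzyme that degrades tryptophan to kynurenine, which starves T cells of an amino acid. IFNγ signals through the kinases JAK1 and JAK2 and induces the transcription factor IRF1, and CD274 and IDO1 are known targets of this pathway.

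After 3 h of IFNγ, CD274 rose from a level near the detection limit, CD276 and NECTIN2 rose by less than 2-fold, and PVR fell by less than 2-fold. TNFRSF14, LGALS9 and CD47 did not pass the test, and PDCD1LG2, VTCN1 and IDO1 had too few counts to be tested. To be called, a gene needed an absolute log2 fold change above 1 and, in edgeR's quasi-likelihood test, a p-value under 0.05 after Benjamini-Hochberg adjustment, and 1 of the 7 tested ligands, CD274, was called. CD274 passed the filter on low counts only through its IFNγ libraries, so that it had to differ in order to be tested, and its call and the counts and median over the tested ligands that include it are descriptions that carry this selection. Of all 14820 tested genes 7.28% were called, which is 2.88% as higher and 4.40% as lower. With the adjusted p-value as the only criterion, 3 ligands were higher and 1 was lower, where 20.0% of all tested genes passed, 9.02% as higher and 11.0% as lower. The 7 tested ligands had a median log2 fold change of 0.62, and all tested genes one of -0.01. In RNA from whole cultures, fewer cells of a kind and less RNA per cell cannot be told apart.

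The libraries held 7171455 to 10365346 counts, so that 1 CPM (a count scaled to library size) corresponded to 7.14 to 10.3 counts. All CPM values below were scaled by the TMM method. The epithelial label was reflected in the counts, as all 10 epithelial and enterocyte markers were at or above 1 CPM in every library. Of 9 leukocyte markers, which summed to 8.37 to 13.8 CPM, CD14, LYZ and ITGAM were at or above 1 CPM in every library and the other 6, PTPRC among them, had at most 10 counts. Of 6 fibroblast markers, which summed to 104 to 198.5 CPM, COL1A1 carried most with 638 to 1842 counts, COL3A1, PDGFRB and LUM were also at or above 1 CPM in every library, and COL1A2 and DCN had at most 1 count. The 4 endothelial markers with a row summed to 1.26 to 2.46 CPM, of which VWF was at or above 1 CPM in every library. These marker sums overlapped between the conditions for the fibroblast and endothelial lists. The leukocyte sum was 8.37 and 10.2 CPM in unstimulated cells and 11.9 and 13.8 CPM after IFNγ, and the epithelial sum was 5663 and 6127 CPM and then 7012 and 7565 CPM; the part of either in the results was not tested. As a check of the labels, 8 of 10 genes that IFNγ is known to induce were called higher and 10 had a positive log2 fold change.

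Promoter sequences are shown for the ligand that was called, for the other ligand with a motif match, and for NECTIN2 and PVR of the nectin family, which moved in opposite directions. The sequences are those of RefSeq (GRCh38.p14), from 250 bases before to 50 bases after the annotated start, 5′ to 3′ on the strand of the gene. Capitals mark matches to the GAS motif TTCNNNGAA, known from genes that IFNγ activates, or to the IRF motif, GAAA then any 2 bases then GAAA, known for interferon regulatory factors, on either strand.
CD274 (chr9:5450292-5450591, plus strand): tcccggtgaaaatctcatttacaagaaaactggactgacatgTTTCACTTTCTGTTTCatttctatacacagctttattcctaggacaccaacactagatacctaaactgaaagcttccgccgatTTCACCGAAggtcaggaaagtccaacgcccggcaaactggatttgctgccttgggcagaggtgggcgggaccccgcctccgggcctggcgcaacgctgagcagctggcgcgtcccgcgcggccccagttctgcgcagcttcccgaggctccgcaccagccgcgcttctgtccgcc
LGALS9 (chr17:27630938-27631237, plus strand): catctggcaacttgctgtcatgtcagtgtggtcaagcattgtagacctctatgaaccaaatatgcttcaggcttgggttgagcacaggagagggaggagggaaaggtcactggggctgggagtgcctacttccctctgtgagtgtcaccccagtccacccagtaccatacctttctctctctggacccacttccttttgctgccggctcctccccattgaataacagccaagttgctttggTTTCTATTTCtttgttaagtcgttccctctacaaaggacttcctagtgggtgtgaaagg
NECTIN2 (chr19:44846047-44846346, plus strand): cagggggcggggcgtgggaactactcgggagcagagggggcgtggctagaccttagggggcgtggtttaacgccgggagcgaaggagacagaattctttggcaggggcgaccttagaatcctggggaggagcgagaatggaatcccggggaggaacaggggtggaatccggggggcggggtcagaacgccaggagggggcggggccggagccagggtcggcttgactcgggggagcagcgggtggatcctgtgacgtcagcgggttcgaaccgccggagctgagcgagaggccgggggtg
PVR (chr19:44643660-44643959, plus strand): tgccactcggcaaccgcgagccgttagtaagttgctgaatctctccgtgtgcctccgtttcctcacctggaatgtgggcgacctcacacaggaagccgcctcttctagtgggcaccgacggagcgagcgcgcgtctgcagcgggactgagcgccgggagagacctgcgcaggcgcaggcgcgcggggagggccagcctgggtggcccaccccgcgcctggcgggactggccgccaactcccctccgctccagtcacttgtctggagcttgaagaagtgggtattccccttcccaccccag
The CD274 window held a GAS match from -125 to -117 and 2 overlapping IRF matches from -208 to -199 and from -202 to -193, counted from the annotated start. The LGALS9 window held an IRF match from -9 to 1. Of the 35116 promoter windows of this length in the RefSeq table, 7.66% held a GAS match and 3.57% an IRF match on either strand. The table held windows for 8 of the 10 genes, and matches were found in 2 of them. A match is a stretch of letters and was not tested as a binding site, and the absence of these letters from a window says nothing about a factor.

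Of the 4 B7 family ligands, CD274 and CD276 passed the test and the other two had too few counts. CD274 (ENSG00000120217) is at chr9:5450503-5470566 of GRCh37 (plus strand), and no other annotated exon overlaps it. It was counted 2 times and 1 time in unstimulated cells and 16 and 10 times after IFNγ, or 0.195, 0.140, 1.56 and 1.36 CPM. Both IFNγ libraries were thus above both unstimulated libraries, although the highest value was 1.56 CPM. Over the summed counts the ratio was 8.57 (95% exact interval 2.63 to 44.2, which covers counting error only). CD274 had a fitted log2 fold change of 2.99 (SE 0.619, adjusted p = 0.0158 from edgeR), which carries the selection by the filter and, with so few unstimulated counts, depends on the prior count and is no bound. With a prior count of 2 the replicate 1 and replicate 2 libraries gave 2.08 and 2.11. The call rested on each of the libraries. Without the unstimulated replicate 1 the adjusted p-value from edgeR was 0.116, without the unstimulated replicate 2 it was 0.0762, without the IFNγ replicate 2 it was 0.0604, and without the IFNγ replicate 1 CD274 no longer passed the filter. DESeq2 gave no adjusted p-value for CD274 with its default filtering, and 0.12 without that filtering, a setting that was added once the data had been seen.

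PDCD1LG2 (ENSG00000197646, chr9:5510531-5571282 of GRCh37), which follows CD274 on the same strand, had 0 counts in every library. A count of 0 allows up to 3 counts, or 0.292 to 0.420 CPM, so a rise such as that of CD274 would have been visible only above this limit. The other neighbors of CD274 with a row did not rise with it. On the other side PLGRKT, a plasminogen receptor, had 2.14 and 3.50 CPM in unstimulated cells and 1.26 and 4.09 CPM after IFNγ (log2 fold change -0.11 at an adjusted p of 0.916 from edgeR), and the unnamed gene ENSG00000231967 had at most 1 count. RIC1, beyond PDCD1LG2, fell by 0.62 on the log2 scale (adjusted p = 0.0288 from edgeR), from 33.8 and 35.0 CPM to 24.1 and 20.6 CPM.

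CD276 (ENSG00000103855, chr15:73976307-74006855 of GRCh37, plus strand) encodes B7-H3, a ligand that is widely expressed in carcinomas and whose receptor is not settled. It had 123 and 126 CPM in the unstimulated libraries and 197 and 219 CPM after IFNγ, and the groups did not overlap. The log2 fold change was 0.74 (SE 0.115, 95% interval 0.469 to 1.01, adjusted p = 0.00592 from edgeR), which is a rise of 1.67-fold. Log2 fold changes rose with the GC content of the transcript across the tested genes (Spearman rho = 0.438, over genes that share libraries), and the CD276 transcript had a GC content of 60.0% against a median of 48.5%. With the trend of GC content and length removed from each library the log2 fold change of CD276 was 0.45 (adjusted p = 0.0305 from edgeR). VTCN1 (ENSG00000134258, chr1:117686209-117753582, minus strand), which encodes B7-H4, had 0 counts in both unstimulated libraries and 1 count in each IFNγ library. Both conditions were under the limit of 3 counts in every library, so no fold is given.

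**Figure D1:**
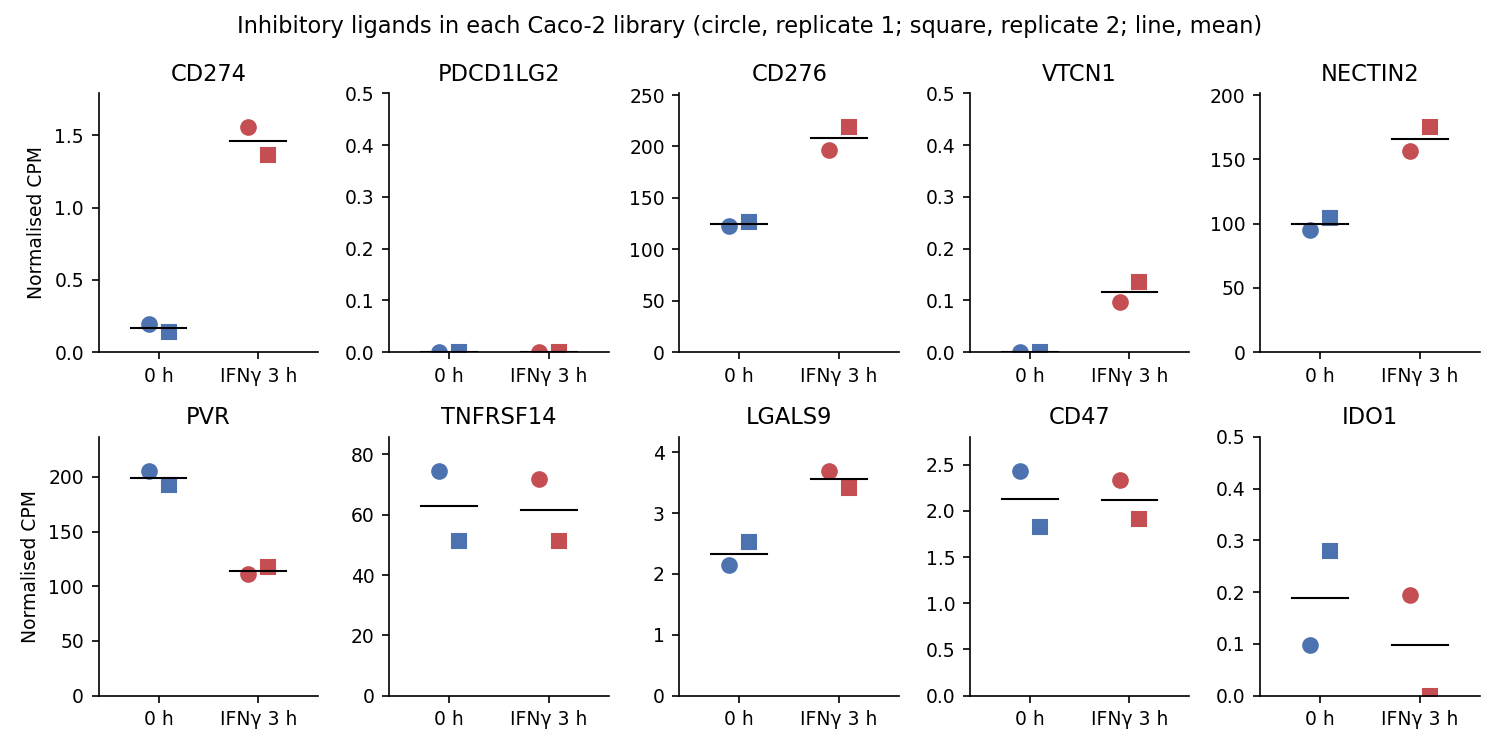
Normalised CPM of each ligand (vertical axis, linear and from 0, with its own scale per gene) in the 2 unstimulated libraries at 0 h and the 2 libraries after 3 h of IFNγ; the line is the mean of 2. CD274 rose to 1.56 and 1.36 CPM, CD276 and NECTIN2 were higher and PVR lower in both IFNγ libraries, and TNFRSF14 differed more between replicates than between conditions.

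The ligands of the nectin family, which are shared by TIGIT and CD226, moved in opposite directions. PVR (ENSG00000073008, chr19:45147098-45169430 of GRCh37) had 206 and 192 CPM in the unstimulated libraries and 112 and 117 CPM after IFNγ. Every IFNγ value was below every unstimulated value, which held for PVR alone of the 7 tested ligands and for 30.8% of all tested genes. It fell by 0.80 on the log2 scale (SE 0.112, 95% interval -1.06 to -0.536, adjusted p = 0.00432 from edgeR), so that the unstimulated level was 1.74 times the level after IFNγ. Taken by replicate number, PVR fell by 0.88 and 0.71 on the same scale, and with the GC and length trend removed the log2 fold change was -0.91. On the annotation used, 20.6% of the exon length of PVR overlaps exons of CEACAM19 and of an unnamed gene on the same strand, where reads may have been left uncounted.

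NECTIN2 (ENSG00000130202, chr19:45349432-45392480 of GRCh37), which lies on the same strand of the same chromosome as PVR, had 95.3 and 104 CPM in the unstimulated libraries and 156 and 175 CPM after IFNγ. The groups did not overlap, and the log2 fold change was 0.73 (SE 0.121, 95% interval 0.448 to 1.02, adjusted p = 0.0072 from edgeR), a rise of 1.66-fold. Its transcript was as rich in GC as that of CD276, at 60.7%, and with the GC and length trend removed the log2 fold change was 0.44 (adjusted p = 0.0428 from edgeR). Per kilobase of exon, the level of PVR was 0.774 and 0.662 times that of NECTIN2 in the unstimulated libraries and 0.256 and 0.240 times after IFNγ. This ratio is taken within a library and does not depend on how libraries are scaled, but its size depends on the lengths used. The ratio was not corrected for the GC trend, and the PVR transcript had a GC content of 52.1%. Without that correction, the ratio was lower in both IFNγ libraries than in either unstimulated library.

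**Figure D2:**
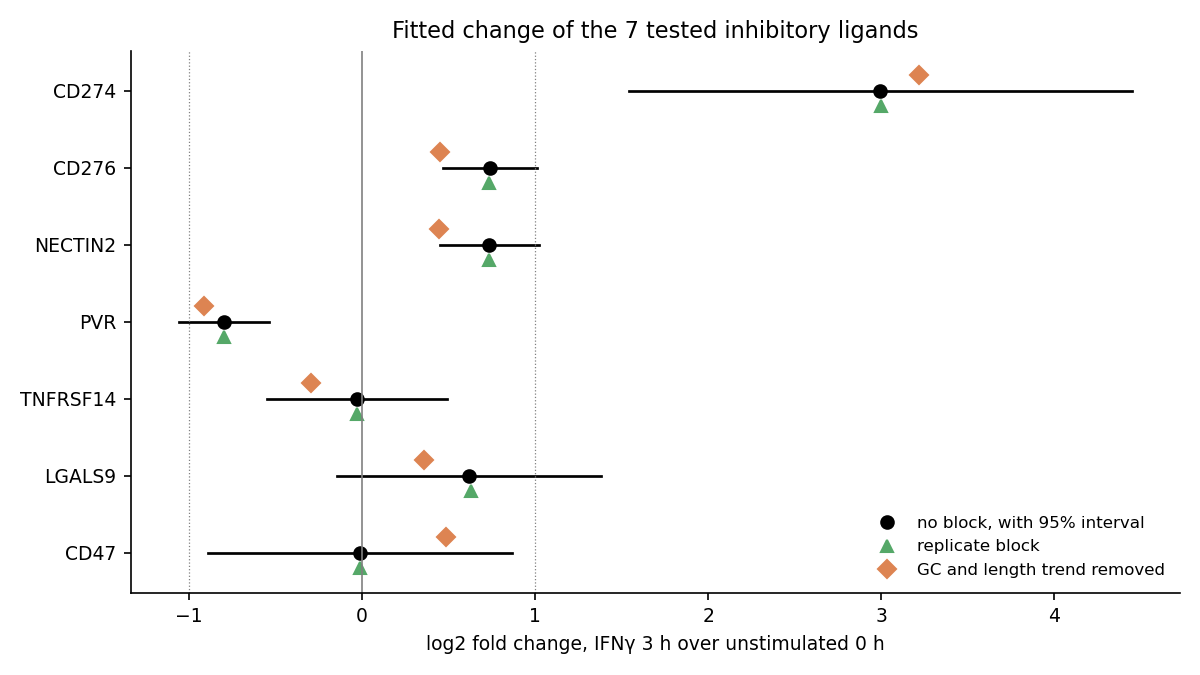
Log2 fold change (horizontal axis, IFNγ over unstimulated) of the 7 tested ligands, with the 95% interval of the fit without a block as a line, and the values with the replicate block and with the GC and length trend removed as further symbols; dotted lines mark log2 fold changes of -1 and 1. The intervals of CD274, CD276 and NECTIN2 lie above 0 and that of PVR below 0, and removing the trend brought CD276 and NECTIN2 to 0.45 and 0.44.

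The remaining ligands showed no change past the test. TNFRSF14 (ENSG00000157873, chr1:2487078-2496821 of GRCh37), the HVEM gene, had 74.6 and 51.3 CPM in the unstimulated libraries and 71.9 and 51.4 CPM after IFNγ. Replicate 1 was the higher library in both conditions, and the groups overlapped. The log2 fold change was -0.03 (95% interval -0.549 to 0.488, adjusted p = 0.94 from edgeR). With the GC and length trend removed and the replicate block the log2 fold change was -0.30 with an adjusted p-value of 0.0251 from edgeR, and its sign turned under some settings. TNFRSF14-AS1, on the opposite strand, overlaps 13.3% of its exon length, and without a stated strand setting reads of the pair cannot be told apart.

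LGALS9 (ENSG00000168961, chr17:25956824-25976586 of GRCh37) encodes galectin-9, a sugar-binding lectin. Unstimulated cells gave 22 and 18 counts of it and IFNγ-treated cells 38 and 25, or 2.14, 2.52, 3.70 and 3.41 CPM. The groups did not overlap. This was so for 5 of the 7 tested ligands, 4 with IFNγ above and 1 below, and for 62.4% of all tested genes, 31.6% with IFNγ above and 30.8% below. Over the summed counts of LGALS9 the ratio was 1.56 (95% exact interval 1.03 to 2.38, which covers counting error only). The log2 fold change was 0.62 (SE 0.327, 95% interval -0.146 to 1.38, adjusted p = 0.222 from edgeR). With the GC and length trend removed the log2 fold change was 0.36 (adjusted p = 0.507 from edgeR). With 2 libraries per condition at this depth, any LGALS9 change within the 95% interval of the fit remained compatible with the counts. The near-identical genes LGALS9B and LGALS9C had at most 2 counts in any library, and how reads shared by these copies were counted is not known, so the value of LGALS9 is uncertain. A further unnamed gene on its strand overlaps 5.15% of its exon length.

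CD47 (ENSG00000196776, chr3:107761938-107810709 of GRCh37, minus strand) gave 25 and 13 counts without IFNγ and 24 and 14 with it, or 2.43, 1.82, 2.33 and 1.91 CPM. The groups overlapped, and the log2 fold change was -0.01 (95% interval -0.889 to 0.869, adjusted p = 0.988 from edgeR). Any CD47 change within this interval remained compatible with the counts at this depth. IDO1 (ENSG00000131203, chr8:39759794-39786309 of GRCh37) gave 1 and 2 counts without IFNγ and 2 and 0 with it. Both conditions were under the limit of 3 counts in every library, so no fold is given. Over the summed counts the 95% exact interval of the IDO1 ratio was 0.055 to 5.75, which covers counting error only. Any IDO1 ratio within this interval remained compatible with these few counts.

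Levels between genes were compared as CPM per kilobase of annotated exon, and their order depended on the length used. Per kilobase of all annotated exons the unstimulated levels were 25.5 and 27.9 for NECTIN2, 22.5 and 23.0 for CD276, 19.7 and 18.4 for PVR and 12.0 and 8.25 for TNFRSF14. Per kilobase of the canonical transcript, a length added once the data had been seen, they were 35.4 and 38.7 for NECTIN2, 37.4 and 38.3 for CD276, 35.5 and 33.2 for PVR and 43.8 and 30.1 for TNFRSF14. In unstimulated cells CD276 was above PVR in every library with both lengths, and no other order among these 4 genes held with both. After IFNγ the levels per kilobase of all exons were 41.8 and 46.8 for NECTIN2, 35.9 and 39.9 for CD276, 10.7 and 11.2 for PVR and 11.6 and 8.28 for TNFRSF14. Per kilobase of the canonical transcript they were 58.1 and 65.1, 59.8 and 66.4, 19.3 and 20.2, and 42.2 and 30.2 in the same order of genes. NECTIN2 and CD276 were above PVR and TNFRSF14 in every IFNγ library with both lengths. LGALS9, with 0.375 and 0.441 CPM per kilobase of all exons in unstimulated cells, was below these 4 genes and above CD47, with 0.296 and 0.221, with both lengths. After IFNγ CD274 had 0.379 and 0.332 CPM per kilobase of all exons and CD47 0.284 and 0.232, and per kilobase of the canonical transcript the libraries of the pair overlapped. In all, 6 of the 10 genes were at or above 1 CPM in every library and 3 were under 1 CPM in every library.

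**Figure D3:**
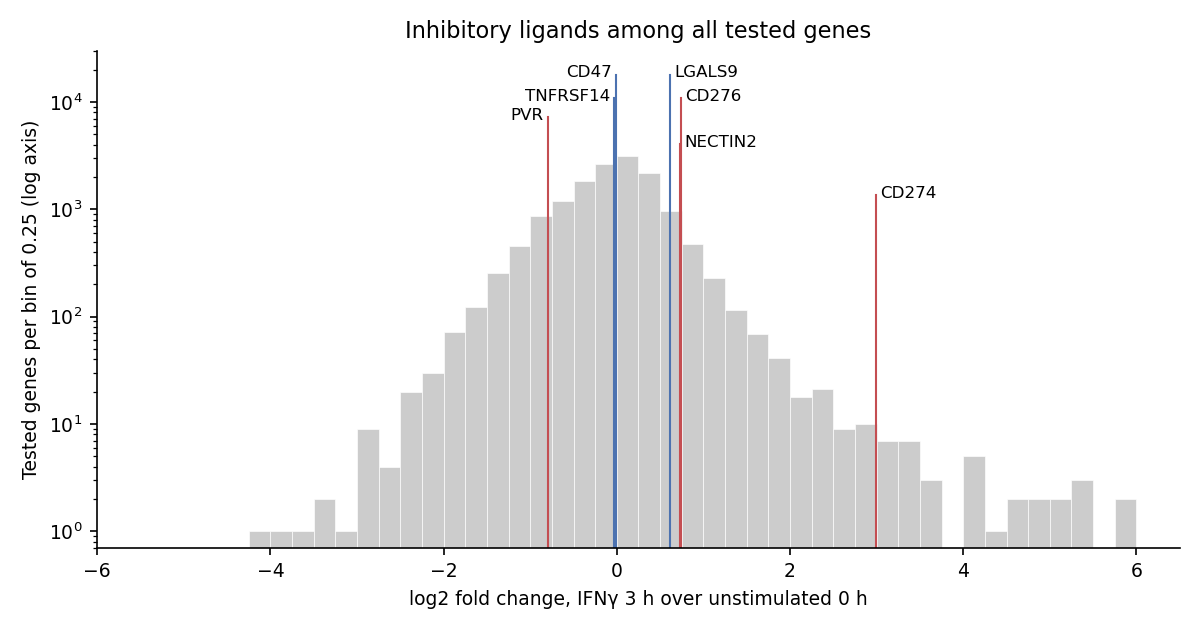
Number of tested genes (vertical axis, logarithmic) per bin of 0.25 in log2 fold change (horizontal axis, IFNγ over unstimulated), with the ligands as lines, red where the 95% interval excludes 0 and blue where it does not. The line of CD274 stands at 2.99, a value that rests on 3 unstimulated counts in a gene that passed the filter only through its IFNγ libraries, and the other 6 lines stand between -0.80 and 0.74.

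The genes that surround these ligands in their pathways were examined as 9 lists with 112 genes, of which 109 had a row and 76 were tested. Of these 8 were called higher and 1 lower, where 2.88% and 4.40% of all tested genes were, and their median log2 fold change was 0.28 against -0.01. With the adjusted p-value alone 20 were higher and 5 lower, where 9.02% and 11.0% of all tested genes were. The lists were written with earlier results of these data known. Unless stated, log2 fold changes of listed genes were not corrected for the GC trend.

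Receptors on T cells, NK cells or phagocytes, not all of which bind these ligands, were mostly near the detection limit. Of 12 receptor genes with a row, 2 were tested, and the others had at most 14 counts in any library. SIRPA, the receptor of CD47, rose from 41.9 and 40.3 CPM to 59.9 and 65.8 CPM (log2 fold change 0.61 at an adjusted p of 0.0164 from edgeR), under the fold change threshold. HAVCR2, which encodes TIM-3, had a log2 fold change of -0.36 (BH-adjusted p = 0.622 from edgeR). PDCD1, which encodes PD-1, and TIGIT had at most 2 counts in any library.

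Of 12 tested genes of the other B7 and butyrophilin families, 1 was called higher and 0 lower, and 4 passed the adjusted p-value alone, all of them higher. ICOSLG, the ligand of the costimulatory receptor ICOS, rose from 47.6 and 48.2 CPM to 105 and 116 CPM (log2 fold change 1.20 at an adjusted p of 0.00161 from edgeR), although an unnamed gene on its strand overlaps 16.6% of its exon length. With the GC and length trend removed and the replicate block its log2 fold change was 0.9995, under the threshold, which ends the call. HHLA2, a B7 family ligand abundant in the gut, rose from 229 and 228 CPM to 341 and 317 CPM (log2 fold change 0.53 at an adjusted p of 0.0153), and BTNL8, a butyrophilin-like gene of the intestinal epithelium, had a log2 fold change of 0.83 (BH-adjusted p = 0.00443), both from edgeR. VSIR, which encodes the inhibitory ligand VISTA and was picked after its values had been seen, had a log2 fold change of 0.98 (BH-adjusted p = 0.00703 from edgeR), under the fold change threshold. The VSIR transcript had a GC content of 59.2%, and this value was not corrected for the GC trend. Of the TNF family costimulatory genes, TNFSF4, the OX40 ligand, was the only one of 3 tested to be called, and it fell from 11.8 and 13.2 CPM to 5.35 and 6.82 CPM (log2 fold change -1.04 at an adjusted p of 0.0186 from edgeR). With the GC and length trend removed its adjusted p-value was 0.0524, and without the IFNγ replicate 1 it was 0.0521, both from edgeR. Its log2 fold change was short of the threshold with upper quartile scaling (-0.9999), with the trend removed and the block (-0.76) and without the unstimulated replicate 2 (-0.95). TNFSF15 and TNFSF9 had log2 fold changes of 0.73 (adjusted p = 0.176) and -0.89 (adjusted p = 0.148) in edgeR.

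Other members of the nectin and galectin families did not pass the test. Of the 4 tested nectin and nectin-like genes 0 passed the adjusted p-value, and NECTIN3, CADM1 and NECTIN1 had log2 fold changes of 0.23, -0.02 and 0.37 (edgeR). Of the 5 tested galectins 0 passed, although 4 had a positive value. LGALS3, the most abundant of them, had 989 and 1258 CPM in unstimulated cells and 1351 and 1674 CPM after IFNγ (log2 fold change 0.43 at an adjusted p of 0.0968 from edgeR), and LGALS2 and LGALS8 had log2 fold changes of 0.33 and 0.39.

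IDO1 was hardly counted, and of the 11 tested genes of the tryptophan and kynurenine list 2 were called higher and 0 lower, while 4 passed the adjusted p-value alone as higher and 1 as lower. SLC7A5, the light chain of the transporter LAT1, which carries tryptophan and other large neutral amino acids, rose from 103 and 95.5 CPM to 335 and 398 CPM (log2 fold change 1.89 at an adjusted p of 0.000502 from edgeR). Its heavy chain SLC3A2 rose by 0.72 on the log2 scale (adjusted p = 0.0056 from edgeR), under the fold change threshold. WARS1, the cytoplasmic tryptophanyl-tRNA synthetase and a known IFNγ target, rose from 35.6 and 42.5 CPM to 110 and 100 CPM (log2 fold change 1.43 at an adjusted p of 0.0015 from edgeR). QPRT, which acts late in the pathway from kynurenine to NAD, had a log2 fold change of 0.27 (BH-adjusted p = 0.123). The kynurenine-forming enzyme IDO2 had 0 counts in every library, and TDO2 had at most 12.

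Of 11 tested genes that act on the PD-L1 or CD47 proteins 0 were called, 1 passed the adjusted p-value alone as higher and 1 as lower, and the median log2 fold change was -0.01. CMTM4, a relative of CMTM6 that stabilizes PD-L1, had 404 and 405 CPM in unstimulated cells and 397 and 409 CPM after IFNγ (log2 fold change -0.01). STT3A, a subunit of the N-glycosylation enzyme, and ZDHHC9, a palmitoyltransferase, had log2 fold changes of 0.07 (adjusted p = 0.706) and 0.36 (adjusted p = 0.0587) in edgeR.

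Of the 12 tested genes of the list of other inhibitory molecules, 1 was called higher and 0 lower, 3 passed the adjusted p-value alone as higher and 1 as lower, and the median log2 fold change was 0.00. HLA-E, whose product is bound by the inhibitory receptor NKG2A of NK cells, rose from 141 and 155 CPM to 543 and 521 CPM (log2 fold change 1.84 at an adjusted p of 0.000331 from edgeR). TGFB1 rose by 0.67 on the log2 scale (adjusted p = 0.0144 from edgeR), under the fold change threshold, and TNFSF10, which encodes TRAIL, had a log2 fold change of 0.37 (BH-adjusted p = 0.168 from edgeR). Of the 16 tested genes of IFNγ signaling and CD274 transcription, 4 were called higher and 0 lower, among them IRF1, STAT3 and MYC, while 7 passed the adjusted p-value alone as higher and 1 as lower. IRF1 went from 19.3 and 20.2 CPM to 1201 and 1085 CPM, STAT3 had a log2 fold change of 1.14 and MYC one of 2.87. JAK2, which lies on the same chromosome arm as CD274, had 7 to 24 counts per library (log2 fold change -0.32 at an adjusted p of 0.677 from edgeR).

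**Figure D4:**
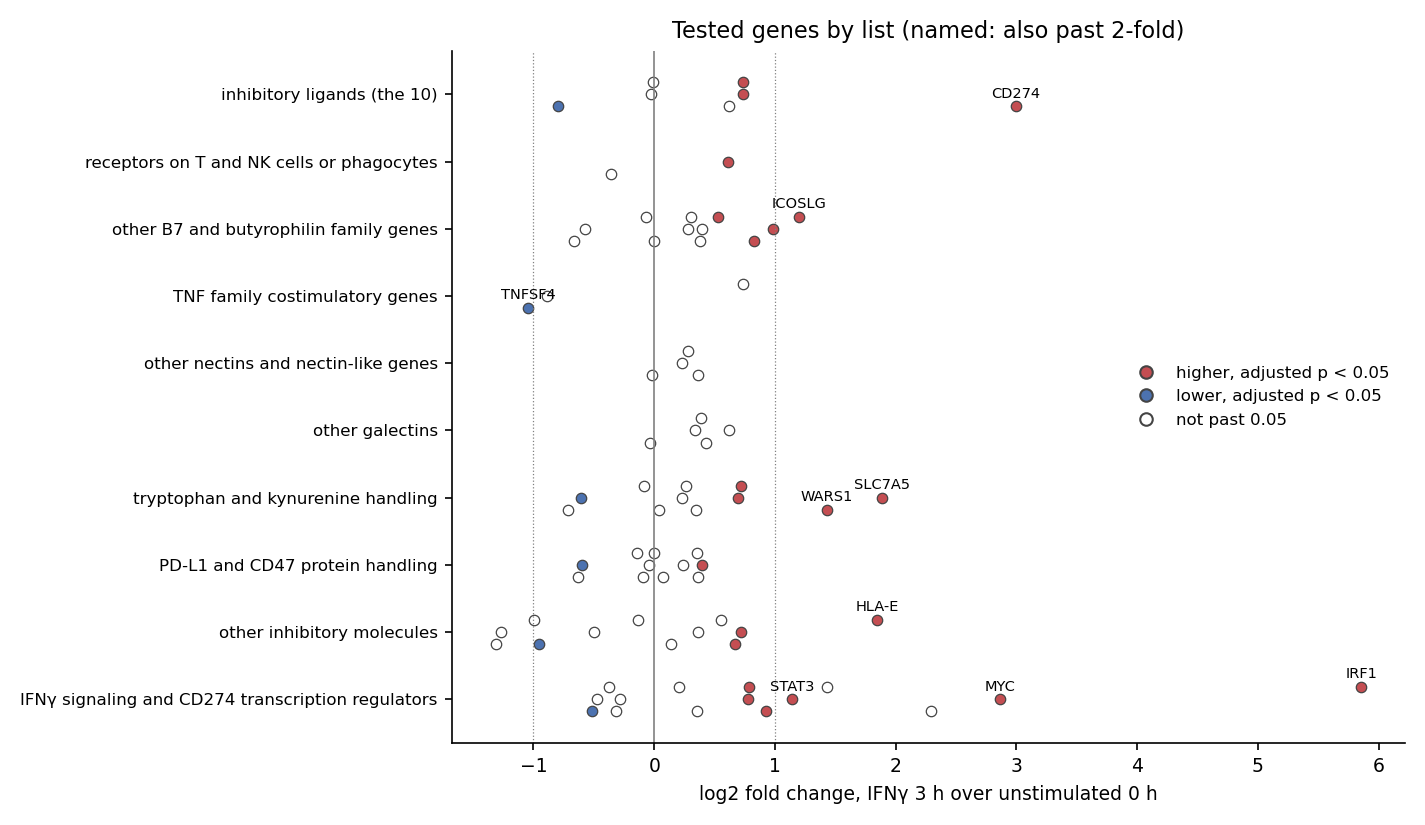
Log2 fold change (horizontal axis, IFNγ over unstimulated) of the tested genes reported here by list, filled red or blue where the adjusted p-value was under 0.05, and named where the gene was also past a log2 fold change of 1 in either direction. CD274, ICOSLG, SLC7A5, WARS1, HLA-E, IRF1, STAT3 and MYC lie to the right of 1 and TNFSF4 to the left of -1.

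The tested genes whose pattern was most like that of CD274 over the 4 libraries were PLK3, KLF4 and SLITRK3, with Euclidean distances of 0.106, 0.133 and 0.138 between log2 CPM values centered on the mean of each gene. PLK3, a polo-like kinase, rose from 2.92 and 2.80 CPM to 13.4 and 12.3 CPM, and KLF4, an epithelial transcription factor, from 7.98 and 7.71 CPM to 34.0 and 32.5 CPM. SLITRK3 had 0.974 and 0.701 CPM in unstimulated cells and 4.38 and 3.82 CPM after IFNγ. The distances were taken with a prior count of 2, which drew the change of CD274 toward 0, as it had 2 and 1 unstimulated counts. With this prior count its 2 replicate numbers gave log2 changes of 2.08 and 2.11, against a fitted 2.99. Fitted values of PLK3, KLF4 and SLITRK3 were 2.16, 2.08 and 2.25, so the likeness depends on the prior count.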

How the data were processed

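RNA-seq libraries of Caco-2 cells, 2 per condition, were compared. The values the authors deposited were raw gene counts by Ensembl identifier, not normalized, with replicates kept apart. Per the labels, libraries were made with a TruSeq kit from mirVana RNA. The submitters' processing notes name HISAT 0.5.1 and HTSeq 0.6.1p1. The genome build and the use of strand are not given in the sources used here for these libraries. Symbols were found for 96.5% of gene identifiers. Coordinates, exon lengths and GC content came from GENCODE 44 mapped to GRCh37, and promoters from RefSeq (GRCh38.p14).

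The main test was the quasi-likelihood test of edgeR 4.0.16 (R 4.3.3) on TMM-scaled libraries, with the default filter on low counts (14820 genes kept) and no block. Benjamini-Hochberg adjustment ran over all tested genes. Standard errors were the log2 fold change over the square root of F. Precision was limited by 2 libraries per condition and by counting error at low counts. Exact intervals (95%) and the limit of 3 counts cover counting error only. The alternatives were other scalings, DESeq2 1.42.0, other filters and thresholds, the replicate block, each library left out, and removal of a GC and length trend by loess (span 0.3). The members and lists were chosen with earlier results of these data known. The text names every member, called genes of the lists and up to 3 further genes per list by mean CPM, neighbors of the called member and the 3 genes most like it; VSIR, IDO2, TDO2, PDCD1, TIGIT, JAK2, LGALS9B and LGALS9C are named outside this rule, and 1 gene that it would name is not reported here. The fits were tested on simulated data of 14530 genes with 200 changed 4-fold, where the main test recovered 90.5% of them with 5.20% false calls. The changed genes were drawn at random, so this does not give the recovery of smaller changes or of genes with few counts.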

Additional observations from a re-analysis of the deposited data

How the results depend on the processing

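The number of ligands called higher, 1, was 0 with DESeq2 (default, and without independent filtering, which was chosen after the data were seen), with at least 10 counts in every library, which leaves CD274 untested, at an adjusted p-value of 0.01, and with each library left out in turn (0 to 0). With no fold change threshold it was 3, and the number called lower was 1 instead of 0. Other scalings, no filter, the block and the removed trend left it at 1. Ligands past the adjusted p-value alone were 2 or 3 higher in every setting, and 1 lower, or 2 with the trend removed and the block, where TNFRSF14 stood at -0.30 on the log2 scale (adjusted p = 0.0251, edgeR). CD276, NECTIN2 and PVR kept their direction and stayed under an adjusted p-value of 0.05 in every fit run for them.

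The sign of TNFRSF14 and CD47 was not stable. TNFRSF14 had log2 fold changes of 0.0067 with upper quartile scaling, 0.27 without the unstimulated replicate 1 and 0.16 without the IFNγ replicate 2 (range over libraries left out -0.31 to 0.27). CD47 had 0.027 with upper quartile scaling, 0.0088 without a filter, 0.48 with the GC and length trend removed, 0.47 with the block added to it, 0.23 without the unstimulated replicate 1 and 0.093 without the IFNγ replicate 2 (range -0.18 to 0.23). The cause was not tested. Per kilobase of the canonical transcript, a length added after the data were seen, the mean levels in unstimulated and IFNγ-treated cells were 37.1 and 61.6 CPM for NECTIN2, 37.8 and 63.1 for CD276, 34.3 and 19.8 for PVR, 37 and 36.2 for TNFRSF14, 1.35 and 2.06 for LGALS9 and 0.402 and 0.401 for CD47, with 0.402 for CD274 after IFNγ and 0.102 for IDO1 in unstimulated cells.

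Genes of the related lists called lower were 0 with upper quartile scaling, with the trend removed and at an adjusted p-value of 0.01, 2 without a filter, 3 with the trend removed and the block, and 5 with no fold change threshold, against 1. Those called higher were 20 with no fold change threshold, against 8. Over all genes 427 were called higher and 652 lower. With no fold change threshold these were 1337 and 1626, the number lower was 350 with the trend removed and 382 at an adjusted p-value of 0.01, and leaving out single libraries gave 554 to 1112, the highest without the IFNγ replicate 1. Of the calls 39.6% were higher, and 50.1% with the trend removed. With the replicate block 492 genes were called higher and 896 lower. Same-numbered libraries deviated together (r = 0.415 across genes), but with 2 pairs the numbers were not taken as a pairing. The share of promoters with an IRF match was 1.69% on the gene's strand alone. In the fits without a filter and without the IFNγ replicate 2, the prior degrees of freedom of edgeR were infinite and all genes took the trended spread.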
